A study of Mus musculus with 4 samples.

Results

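The endothelial and stromal niche genes are 10 mouse genes, Cxcl12, Kitl, Lepr, Dcn, Col1a1, Stab2, Kdr, Tek, Cdh5 and Pecam1, taken by name from the deposited tables. All 10 were present among the 23235 genes listed. RNA was sequenced from acute myeloid leukaemia that carries NRASG12V and the Mll-AF9 fusion, transplanted through the tail vein into SCID/Beige mice and grown to full disease. Doxycycline, injected into the peritoneum at the start and kept in the drinking water, switches NRASG12V expression off. The 4 libraries are leukaemia with NRASG12V off for 48 h, for 72 h and for 96 h, and leukaemia with NRASG12V on, 1 library each. All 4 share the NRASG12V and Mll-AF9 genotype and the SCID/Beige host, whose own blood-forming, vascular and connective tissue cells remain and can contribute RNA. The protocol text is the same for all libraries, so whether the on library received the drug is not stated. No library is labelled as given doxycycline with NRASG12V left on, so the drug, the elapsed time and the switch cannot be told apart, and the labels name neither the tissue harvested nor the mice behind each library.

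Blood-forming cells live among vessels and connective tissue cells that feed and hold them, an arrangement called the niche. Perivascular stromal cells secrete Cxcl12, a chemokine that retains blood-forming cells through the receptor Cxcr4, and Kitl (stem cell factor), the ligand of the receptor Kit. In bone marrow such cells are marked by the leptin receptor Lepr. Fibroblasts and related cells lay down matrix such as type I collagen (Col1a1) and the small proteoglycan decorin (Dcn). Endothelial cells line the vessels and carry the VEGF receptor Kdr, the angiopoietin receptor Tek (Tie2), the junction protein Cdh5 (VE-cadherin) and the adhesion protein Pecam1, which platelets and leukocytes carry too. Stab2 is a scavenger receptor of sinusoids, the wide leaky vessels of liver, spleen and marrow.

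For the secreted factors Cxcl12 and Kitl and the endothelial receptors Kdr, Tek and Stab2, which stood higher in every off library, the proximal promoter is shown. The sequences are those of RefSeq on GRCm38.p6, a later build than the mm9 used for the tables, and 6 of the 10 genes matched an entry. Each runs 5′ to 3′ from 250 bases before the transcription start to 50 after it. Capitals mark the letters of a GC box, GGGCGG, which Sp family factors bind, on either strand. They also mark the GATA motif AGATAA. The last motif marked, again on either strand, is the TATA box, spelled TATAAA. The Cxcl12 window is chr6:117168285-117168584 (+), Kitl chr10:100015571-100015870 (+), Kdr chr5:75978406-75978705 (-), Tek chr4:94739039-94739338 (+) and Stab2 chr10:87007893-87008192 (-).
Cxcl12: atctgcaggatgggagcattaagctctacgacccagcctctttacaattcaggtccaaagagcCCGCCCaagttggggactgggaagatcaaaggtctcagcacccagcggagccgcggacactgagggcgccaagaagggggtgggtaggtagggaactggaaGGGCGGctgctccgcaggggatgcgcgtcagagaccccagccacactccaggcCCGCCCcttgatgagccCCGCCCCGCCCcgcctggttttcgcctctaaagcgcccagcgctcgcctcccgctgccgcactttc
Kitl: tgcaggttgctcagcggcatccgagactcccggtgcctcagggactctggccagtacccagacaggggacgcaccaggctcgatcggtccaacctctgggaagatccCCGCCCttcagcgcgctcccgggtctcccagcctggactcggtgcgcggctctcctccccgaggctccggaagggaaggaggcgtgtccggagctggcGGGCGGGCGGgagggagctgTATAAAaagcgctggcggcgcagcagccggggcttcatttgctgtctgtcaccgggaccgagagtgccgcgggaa
Kdr: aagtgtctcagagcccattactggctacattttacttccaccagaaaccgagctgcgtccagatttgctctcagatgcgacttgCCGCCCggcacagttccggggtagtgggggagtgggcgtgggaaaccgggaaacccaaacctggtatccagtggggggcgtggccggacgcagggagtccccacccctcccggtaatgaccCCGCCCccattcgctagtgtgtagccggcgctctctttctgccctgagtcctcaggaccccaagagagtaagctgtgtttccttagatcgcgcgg
Tek: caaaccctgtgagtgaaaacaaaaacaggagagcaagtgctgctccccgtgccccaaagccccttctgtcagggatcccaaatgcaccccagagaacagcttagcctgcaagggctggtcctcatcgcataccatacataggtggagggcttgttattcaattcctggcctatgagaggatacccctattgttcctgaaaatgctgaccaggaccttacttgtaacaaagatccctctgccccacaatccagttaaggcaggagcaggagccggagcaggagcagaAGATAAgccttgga
Stab2: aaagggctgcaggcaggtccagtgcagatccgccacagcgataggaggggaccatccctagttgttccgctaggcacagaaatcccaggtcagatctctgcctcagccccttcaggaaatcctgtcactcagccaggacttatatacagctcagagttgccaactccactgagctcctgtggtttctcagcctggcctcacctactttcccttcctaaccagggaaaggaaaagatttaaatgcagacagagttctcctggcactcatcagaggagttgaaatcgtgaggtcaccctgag
GGGCGG occurred 5 times in the Cxcl12 window, 3 times for Kitl and 2 times for Kdr, and in the Cxcl12 and Kitl windows 2 of the matches overlap. The windows of Tek and Stab2 held none. It was present in 35.7% of the 32851 mouse windows of 300 bases in the same table. TATAAA was found once, in the Kitl window (13.6% of all windows), and AGATAA once, in the Tek window (11.2% of all windows). The GC content was 68.7% for Kitl, 64.7% for Cxcl12 and 60.7% for Kdr, against 53.0% for Stab2 and 52.0% for Tek, with a median of 52.7% over all windows. These matches describe the letters in each window and were not tied to any measurement here.

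Levels are FPKM, sequenced fragments per unit of transcript length and of library size, so they can be set side by side between genes. The authors scaled each table separately, and the off libraries are given on the scale of the 48 h table, reached through the on column that all tables share (factors of 1.05 and 1.06 for the 72 h and 96 h tables). The change at each time is log2((off FPKM + 1)/(on FPKM + 1)) within its own table, which damps the change wherever values are low. The 3 off libraries were also fitted together against the on library with limma over 12015 genes reaching 1 FPKM in at least 1 library. That test takes the 3 times as samples of the off state and assumes that the single on library varies like them, so its p-values measure only the spread among these samples. Mean changes are given with their SD over the 3 off libraries, which share the on value. Read depth is unknown from FPKM; the steps of low values put the reads behind 1 FPKM at 1.15, 1.04 and 1.19 times those of the on library for 48 h, 72 h and 96 h. Mouse Nras, a weak check of the switch because the transgene may differ from the mouse sequence, was at 17.1, 18.0 and 19.4 FPKM off at the 3 times and at 24.5 FPKM on, a mean change of -0.41 ± 0.09 that did not pass limma (Benjamini-Hochberg adjusted p = 0.128).

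In the off libraries, 6 of the 10 niche genes rose, 1 fell, 2 did not pass the test and 1 was too low to be tested. The genes that rose were Cxcl12, Kitl, Dcn, Stab2, Kdr and Tek, by 1.71 to 0.76 on the log2 scale, and Pecam1 fell. Cdh5 and Col1a1 did not pass. The 10 genes were chosen with earlier results of these data known, so the values over all genes are given for scale only. Over all genes tested, limma called 11.8% higher and 15.1% lower, and the median change of the 9 tested niche genes was 0.998 beside -0.08 for all genes. Of these 9, Tek passed the filter on low values only through the off libraries, which favours a rise for it, and Lepr stayed below 1 FPKM in every library. In tissue RNA, a larger share of a cell type and more RNA of a gene per cell cannot be told apart.

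**Figure D1:**
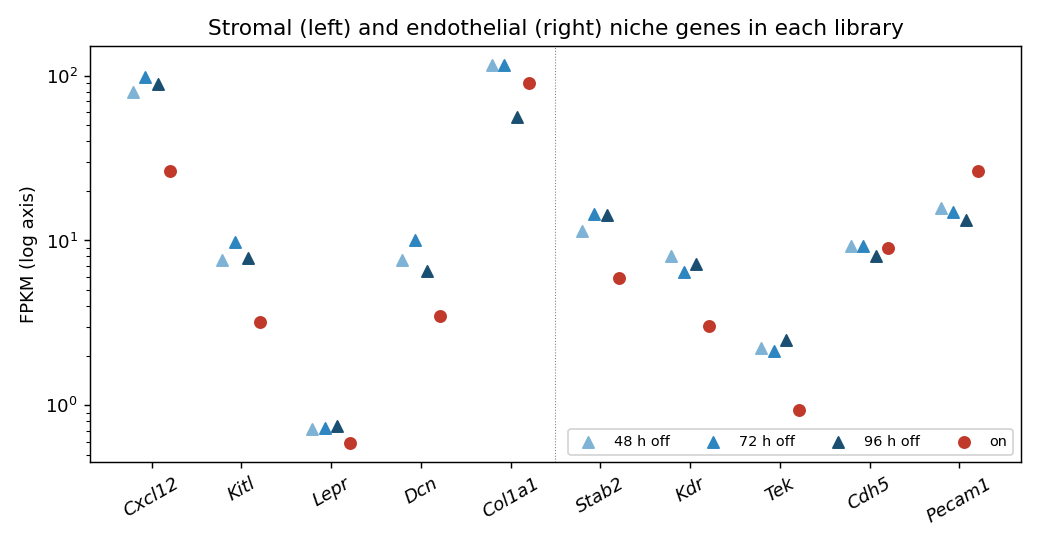
FPKM (log axis) of each niche gene in each library: triangles are the 48 h, 72 h and 96 h off libraries and circles the on library, with stromal genes left of the dotted line and endothelial genes right of it. Cxcl12, Kitl, Dcn, Stab2, Kdr and Tek stood higher in all 3 off libraries than in the on library, Pecam1 stood lower, and Col1a1 was below the on library at 96 h only.

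Among the secreted factors, Cxcl12 had the largest change of the 10 genes. It was at 79.4, 98.4 and 89.0 FPKM off for 48 h, 72 h and 96 h, against 26.5 FPKM on. All 3 off libraries stood well above the on library, 72 h the highest. Without the pseudocount the off to on ratio was 3.0 at 48 h, 3.72 at 72 h and 3.36 at 96 h. Cxcl12 rose by 1.71 ± 0.15 (SD, n = 3 off libraries; limma, Benjamini-Hochberg adjusted p = 0.00188). Kitl was at 7.59, 9.84 and 7.78 FPKM off at the same times, against 3.18 FPKM on. The off libraries again did not overlap the on library, and 72 h was the highest. Kitl rose by 1.16 ± 0.19 (SD, n = 3; limma, Benjamini-Hochberg adjusted p = 0.00614).

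The receptors on the other side of these pairs did not pass the test. Cxcr4, which leukaemia cells and many leukocytes carry, was at 74.2, 73.8 and 65.7 FPKM off for 48 h, 72 h and 96 h, against 106 FPKM on, a mean change of -0.57 ± 0.10 that did not pass limma (Benjamini-Hochberg adjusted p = 0.0629). Kit was at 10.9, 11.1 and 10.9 FPKM off and 9.88 FPKM on, with an adjusted p of 0.582 (limma, Benjamini-Hochberg). Within a library, where scaling cancels, Cxcl12 over Cxcr4 was 1.07, 1.33 and 1.35 off at the 3 times, against 0.250 on. Kitl over Kit was 0.695, 0.885 and 0.716 off, against 0.322 on. Both ratios were higher in each off library than in the on library.

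Lepr, the marker of marrow perivascular stroma, was the lowest of the 10 genes. It was at 0.719, 0.727 and 0.749 FPKM off for 48 h, 72 h and 96 h, against 0.590 FPKM on, under the filter in every library and so without a test. The off values lay close together, just above the on value, with changes of 0.11 to 0.13. Other genes known from Cxcl12-producing marrow stroma ranged widely in level. Vcam1 was at 62.1 to 75.3 FPKM off and 35.1 FPKM on, Pdgfrb at 9.90 to 11.6 FPKM off and 6.52 FPKM on, and Pdgfra at 3.42 to 4.66 FPKM off and 2.65 FPKM on. The transcription factors Ebf3 and Foxc1 reached at most 0.0707 and 0.151 FPKM off, and were at 0.0116 and 0.0427 FPKM on. Adipoq was listed at 0 in all 4 libraries, as was leptin (Lep). Of 10 matched bone-forming genes, 8 were below 1 FPKM in every library, and Sp7, Ibsp, Bglap2 and Sost were listed at 0. The others were Omd, osteomodulin, at 8.0, 9.60 and 10.4 FPKM off, against 6.53 FPKM on (limma, Benjamini-Hochberg adjusted p = 0.131), and Runx2, at 5.49, 5.52 and 4.48 FPKM off, against 8.89 FPKM on. Runx2, a transcription factor of bone formation, fell by 0.69 ± 0.14 (limma, Benjamini-Hochberg adjusted p = 0.0326; 0.0646 with no filter on low values, 0.0664 with the median change of all genes set to 0 and 0.0704 without the 72 h library).

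The matrix genes divided. Dcn was at 7.62, 10.1 and 6.57 FPKM off for 48 h, 72 h and 96 h, against 3.50 FPKM on. Every off library stood above the on library, 72 h the furthest and 96 h the least. Dcn rose by 0.998 ± 0.28 (SD, n = 3; limma, Benjamini-Hochberg adjusted p = 0.0184), and with no filter on low values its adjusted p in limma was 0.0598. Col1a1, the most abundant of the 10 genes in the on library, was at 116, 115 and 55.9 FPKM off at these times, against 89.6 FPKM on. The 48 h and 72 h libraries stood above the on library and the 96 h library below it. The changes were 0.37, 0.36 and -0.67, the 96 h library lay 1.03 below the 72 h library on the log2 scale, and the mean of 0.02 ± 0.60 did not pass limma (Benjamini-Hochberg adjusted p = 0.976). Cxcl12 over Col1a1 was 0.684, 0.855 and 1.59 off, against 0.295 on.

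The sign pattern of Col1a1, above the on library at 48 h and 72 h and below it at 96 h, was shown by Cdh5 too and by 5 of 18 tested perivascular and fibroblast genes, beside 3.37% of all genes tested. It was also shown by 2 of 10 macrophage genes, C1qb and Cd163, and by 1 gene each of the mural (Myh11), endothelial (Nos3), ligand and receptor (Ctnna1) and pan-leukocyte (Ptprc) lists. The 5 perivascular and fibroblast genes were the collagens Col1a2, Col3a1 and Col6a1, the matrix protein Sparc and the Tek ligand Angpt1, named after their values were seen. The pattern was taken from Col1a1 in these same libraries, and signs were counted at any size. At 96 h these collagens and Sparc had changes of -0.29 to -0.61. The other genes named, Angpt1 and Cdh5 included, had only -0.02 to -0.15, beside a median of -0.06 over all genes. Col3a1, a fibrillar collagen, was at 89.9, 102 and 46.9 FPKM off, against 59.9 FPKM on. Sparc, the most abundant gene of that list in the on library, was at 248, 212 and 151 FPKM off, against 202 FPKM on. The mural list, genes of smooth muscle and pericytes, was mixed: of 8 tested, 3 stood below the on library at every time, 2 above it at every time, and the others on both sides. Those named here were chosen after their values were seen, apart from Tagln, the most abundant in the on library. Tagln, a smooth muscle actin-binding protein, was at 48.3, 38.3 and 24.9 FPKM off, against 69.5 FPKM on, and Acta2, smooth muscle actin, at 47.3, 41.0 and 27.3 FPKM off, against 67.7 FPKM on. On the other side, the pericyte receptor Notch3 was at 2.44, 2.12 and 1.68 FPKM off, against 1.16 FPKM on, and the pericyte gene Rgs5 at 0.913, 1.60 and 1.10 FPKM off, against 0.817 FPKM on. Rgs5 passed the filter on low values only through the off libraries, which favours a rise for it. Limma called 0 of the 8 over the 3 times, with 4 at an unadjusted p under 0.05: Tagln, Acta2 and Des lower and Notch3 higher. Without the 48 h library 3 were lower, without the 72 h library 1 was lower, and without the 96 h library 2 were lower and 1 was higher.

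**Figure D2:**
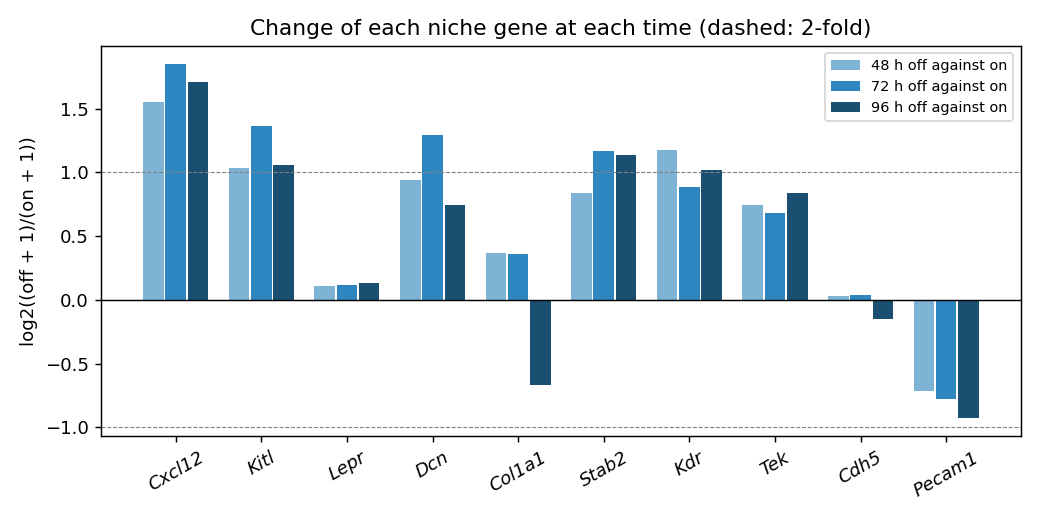
Change of each niche gene at 48 h, 72 h and 96 h off against on, as log2((off + 1)/(on + 1)) within each deposited table; dashed lines mark 2-fold. Cxcl12 and Kitl pass 2-fold at all 3 times, and Col1a1 is at 0.36 at 72 h and at -0.67 at 96 h.

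Among the endothelial niche genes, the receptors Kdr, Tek and Stab2 rose, the junction gene Cdh5 did not pass and Pecam1 fell. Not every endothelial receptor outside the niche genes passed limma. Aplnr and Gpr182 rose, while Flt1, Flt4, Tie1, Robo4 and Eng did not pass. Each of the latter still stood above the on library in all 3 off libraries, with mean changes of 0.13 to 0.62. The receptors Nrp1 and Nrp2 stood below the on library at every time, with mean changes of -0.43 and -0.36, and did not pass either. Kdr, the main signalling receptor for VEGF on endothelium, was at 8.07, 6.47 and 7.21 FPKM off for 48 h, 72 h and 96 h, against 3.01 FPKM on. The off libraries were all more than 2 times the on level, lowest at 72 h. Kdr rose by 1.04 ± 0.14 (SD, n = 3; limma, Benjamini-Hochberg adjusted p = 0.00738). Tek was at 2.24, 2.14 and 2.50 FPKM off, against 0.936 FPKM on, so its off libraries lay close together above the on library. Its mean change was 0.76 ± 0.08 (SD, n = 3; limma, Benjamini-Hochberg adjusted p = 0.0144), and without the pseudocount the ratio was 2.39, 2.28 and 2.67. Stab2 was at 11.3, 14.6 and 14.2 FPKM off, against 5.89 FPKM on. Every off library stood above the on library, the 72 h and 96 h ones the furthest. Stab2 rose by 1.05 ± 0.18 (SD, n = 3; limma, Benjamini-Hochberg adjusted p = 0.00886).

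Cdh5 was at 9.21, 9.30 and 8.04 FPKM off for 48 h, 72 h and 96 h, against 9.01 FPKM on. The on value lay within the off range. Its mean change was -0.03 ± 0.11 (SD, n = 3), with an adjusted p of 0.930 in limma (Benjamini-Hochberg). This does not show that its level was the same. Within a library, Kdr over Cdh5 was 0.876, 0.696 and 0.896 off, against 0.334 on. Stab2 over Cdh5 was 1.23, 1.57 and 1.77 off, against 0.653 on, and Tek over Cdh5 was 0.243, 0.230 and 0.311 off, against 0.104 on. In each off library Kdr, Stab2 and Tek were thus more abundant relative to VE-cadherin than in the on library. Pecam1 was at 15.6, 14.9 and 13.3 FPKM off, against 26.2 FPKM on, with every off library below the on library. It fell by 0.81 ± 0.11 (SD, n = 3; limma, Benjamini-Hochberg adjusted p = 0.0166), and without the 72 h library the adjusted p in limma was 0.0521. Icam2, another adhesion gene of endothelium that leukocytes and platelets also use, was at 5.85, 5.34 and 7.45 FPKM off, against 10.8 FPKM on (limma, Benjamini-Hochberg adjusted p = 0.0401; 0.146 without the 72 h library and 0.0669 with the median change of all genes set to 0). Icam2 also did not pass with no filter on low values or with a simpler form of the fit (plain eBayes).

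In the on library the niche genes ran from Col1a1 through Cxcl12 and Pecam1, with close to equal levels, to Cdh5, Stab2, Dcn, Kitl, Kdr, Tek and Lepr. In the off libraries Cxcl12 was above Col1a1 at 96 h only. Stab2, at 11.3 to 14.6 FPKM off, stood above Cdh5, at 8.04 to 9.30 FPKM off, the reverse of their order in the on library. Kdr stood below Cdh5 within each library, off and on. The off ranges of Pecam1 and Stab2 overlapped, and so did those of Kitl and Dcn with each other and with those of Cdh5 and Kdr.

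By single time, counting genes at 1 FPKM or more in either library of the table, 3 of 9 niche genes were at least 2-fold higher at 48 h, beside 5.0% of all genes, namely Cxcl12, Kdr and Kitl. At 72 h there were 4 of 9, beside 6.61%, namely Cxcl12, Kitl, Dcn and Stab2, and at 96 h 4 of 9, beside 7.39%, namely Cxcl12, Kitl, Stab2 and Kdr. None was 2-fold lower at any time, beside 4.85%, 5.76% and 8.16% of all genes. Cxcl12 and Kitl reached 2-fold at all 3 times, as did 3.63% of all genes tested. With 1 library at each time these counts have no replicate check. They moved with the pseudocount, since most of these genes have low FPKM. With 0.1 FPKM added in place of 1 the counts were 5, 6 and 5, and with 5 FPKM added only Cxcl12 was left at each time.

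Other endothelial genes were set beside the niche genes. Of 21 tested, 4 rose, 1 fell and 16 did not pass, with a median of 0.18. Over all genes tested, 11.8% were called higher and 15.1% lower. Those that rose, named after their values were seen, were the apelin receptor Aplnr (0.98 ± 0.14), the transcription factors Sox18 (0.74 ± 0.22) and Sox17 (0.69 ± 0.12) and the endothelial matrix protein Mmrn2 (0.74 ± 0.23), with adjusted p of 0.00861 to 0.0346 in limma (Benjamini-Hochberg). Sox17 passed the filter on low values only through the off libraries. With no such filter 2 rose, and Mmrn2 had an adjusted p of 0.0686 in limma without the 72 h library. Plvap, a protein of endothelial diaphragms and the most abundant of the list in the on library, was at 55.6, 51.0 and 49.5 FPKM off, against 37.3 FPKM on (limma, Benjamini-Hochberg adjusted p = 0.102). In this list 14 of 21 stood above the on library at every time and 3 below it. Those that did not pass ran from the endoglin gene Eng, a TGF-beta co-receptor, at 0.62 ± 0.29, and the phosphatase Ptprb, at 0.55 ± 0.13, through the tight junction gene Cldn5, at 0.08 ± 0.12, to the transcription factor Erg, at -0.30 ± 0.27, and the lipase-binding protein Gpihbp1, at -0.39 ± 0.06. The median change of all genes was -0.08, and the summed level of the list was 191, 179 and 192 FPKM off, against 158 FPKM on.

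Other sinusoidal genes differed among themselves. Of 9 tested, 2 rose and 7 did not pass, with a median of 0.26, beside 11.8% of all genes called higher. Of the 9, 3 passed the filter only through the off libraries. The chemokine-binding receptor Gpr182 was at 8.26, 8.40 and 7.37 FPKM off, against 3.40 FPKM on, close to the change of Stab2 (1.03 ± 0.09; limma, Benjamini-Hochberg adjusted p = 0.00625). The lectin Clec4g, 1 of the 3 let in by its off libraries alone, also passed, at 0.992 FPKM on. Its mean change was 0.79 ± 0.17, with an adjusted p of 0.0195 in limma (Benjamini-Hochberg) and 0.0502 with no filter. Stab1, the relative of Stab2 that macrophages carry as well, was at 8.14, 7.68 and 5.36 FPKM off, against 10.3 FPKM on, and did not pass (limma, Benjamini-Hochberg adjusted p = 0.142). Fcgr2b, an Fc receptor also present on leukocytes, was at 34.4, 29.8 and 20.8 FPKM off, against 48.5 FPKM on, and did not pass (limma, Benjamini-Hochberg adjusted p = 0.0642). Stab2 over Stab1 was 1.39, 1.90 and 2.65 off, against 0.569 on.

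**Figure D3:**
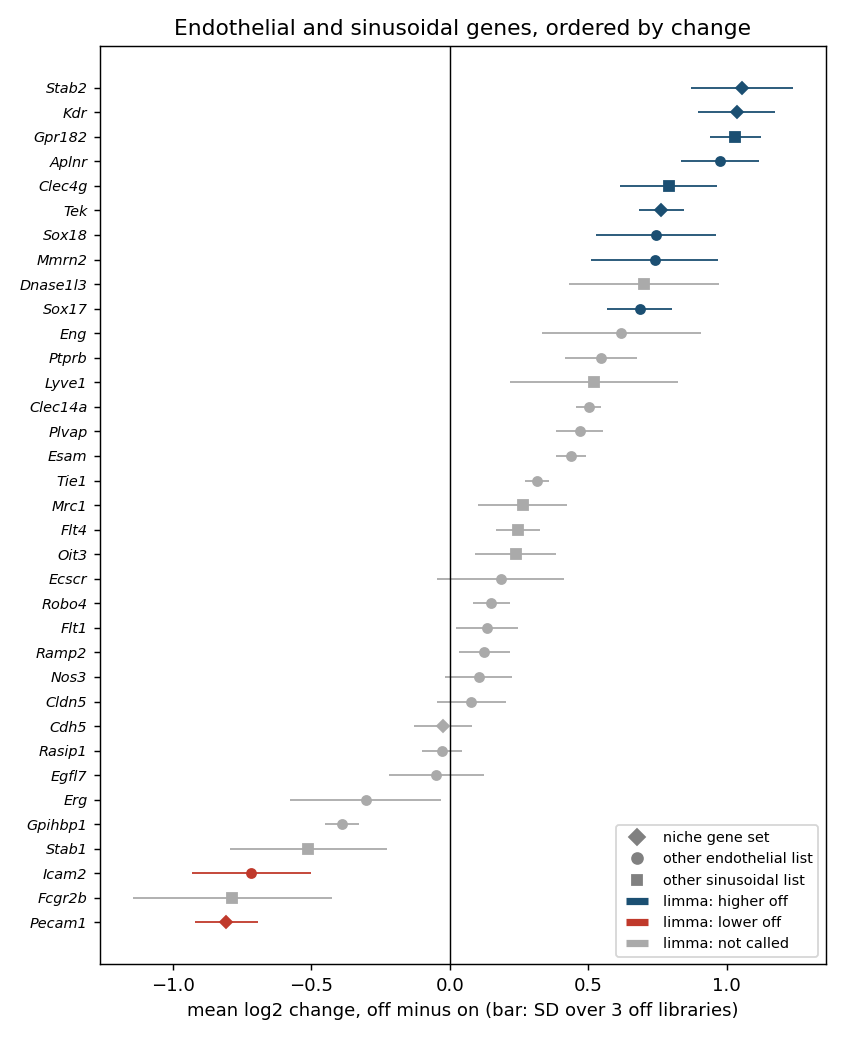
Mean log2 change, off minus on, of the 5 endothelial niche genes (diamonds), the other endothelial genes (circles) and the other sinusoidal genes (squares) that passed the filter; bars are the SD over 3 off libraries, and colour gives the limma call. Stab2 and Kdr lead at 1.05 and 1.04, Cdh5 lies at -0.03, and Icam2, Fcgr2b and Pecam1 lie lowest.

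Of 18 tested perivascular and fibroblast genes, 5 rose and 13 did not pass, with a median of 0.40, beside 11.8% of all genes called higher. Of the 18, 2 passed the filter on low values only through the off libraries, and neither of these was among the 5 that rose. Mgp, matrix Gla protein, reached 2-fold at all 3 times. It was at 18.1, 17.3 and 15.7 FPKM off, against 4.52 FPKM on, and rose by 1.70 ± 0.10 (SD, n = 3; limma, Benjamini-Hochberg adjusted p = 0.00142). Vcam1, an adhesion molecule of stroma, endothelium and macrophages, was at 62.1, 75.3 and 65.9 FPKM off, against 35.1 FPKM on. The others that rose, named after their values were seen, were Loxl1, which cross-links elastic fibres (0.74 ± 0.14), the PDGF receptor Pdgfrb (0.62 ± 0.11) and the complement inhibitor Serping1 (0.61 ± 0.10). Without the 72 h library only Mgp of these 5 passed limma, and with no filter on low values 2 of them passed.

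A further list held ligands, receptors and adaptors of the niche genes together with relatives of these. Of 24 tested, 2 rose, 1 fell and 21 did not pass, beside 11.8% higher and 15.1% lower over all genes tested. Neither count exceeds that share. The VEGF family members Vegfb (0.75 ± 0.17), a ligand of Flt1, and Figf, also called VEGF-D (0.79 ± 0.15), a ligand of Flt4 in mouse, rose, with adjusted p of 0.0266 and 0.0175 in limma (Benjamini-Hochberg), and Vegfb had an adjusted p of 0.0607 with no filter. Vegfa, the ligand of Kdr, was at 14.1, 14.2 and 13.3 FPKM off, against 9.93 FPKM on, and did not pass (limma, Benjamini-Hochberg adjusted p = 0.0970). The Tek ligand Angpt1 was at 4.27, 5.50 and 3.92 FPKM off, against 4.19 FPKM on. Tgfb1 was at 93.7, 80.7 and 79.7 FPKM off, against 147 FPKM on, and fell by 0.79 ± 0.13 (limma, Benjamini-Hochberg adjusted p = 0.0243; 0.132 without the 72 h library). With no filter on low values Tgfb1 did not pass either. The VEGF receptor Flt1 changed by 0.13 ± 0.11 and did not pass, at 2.57, 2.44 and 2.08 FPKM off, against 2.06 FPKM on, and the Tek relative Tie1 was at 7.27, 6.91 and 6.81 FPKM off, against 5.43 FPKM on. Kdr over Flt1 was 3.14, 2.66 and 3.47 off, against 1.46 on, and Tek over Tie1 was 0.308, 0.309 and 0.367 off, against 0.173 on.

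Markers of other cells moved over the same libraries. The counts below stand beside 11.8% of all genes tested called higher and 15.1% called lower. Pan-leukocyte genes fell in 6 of 12 cases, and their summed level was 2838, 2274 and 1726 FPKM off for 48 h, 72 h and 96 h, against 4027 FPKM on; with the median change of all genes set to 0, 3 fell, with no filter on low values 1 fell, and without the 48 h library 10 fell. All 20 erythroid genes rose, with a summed level of 7142, 10635 and 14108 FPKM off, against 1910 FPKM on. Of 15 megakaryocyte and platelet genes, 8 rose and 1, P-selectin (Selp), fell. Without the 72 h library 4 rose. Endothelium carries Vwf and Selp of this list too, and shares Pecam1 with platelets. Vwf, named after its values were seen, was at 17.0, 17.6 and 17.9 FPKM off, against 8.59 FPKM on (0.95 ± 0.03). Selp was at 8.49, 9.39 and 7.92 FPKM off, against 27.1 FPKM on (-1.55 ± 0.11). Of 10 tested macrophage genes 1 rose and 1 fell. Of 10 hepatocyte genes, 9 were below 1 FPKM in every library, with Alb listed at 0. The exception was Trf, transferrin, at 64.9, 62.3 and 56.2 FPKM off, against 48.0 FPKM on (limma, Benjamini-Hochberg adjusted p = 0.222). The summed level of the 10 niche genes was 258, 282 and 205 FPKM off, against 168 FPKM on. Most of this sum came from Cxcl12 and Col1a1 in every library, and Col1a1 did not pass limma, so the sum does not describe the set as a whole. The part that the shifts in markers of other cells have in the changes of the niche genes was not tested.

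**Figure D4:**
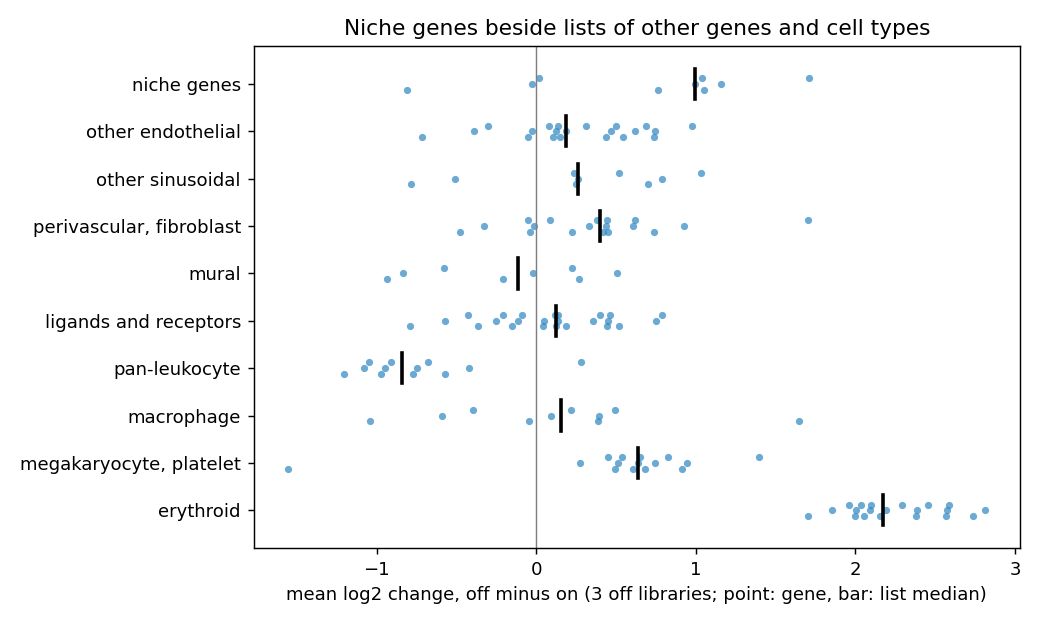
Mean log2 change, off minus on, over 3 off libraries for each tested gene (points) of each list, with the list median (bar). The niche genes have a median of 0.998, between the erythroid genes at 2.17 and the pan-leukocyte genes at -0.84, while the other endothelial list sits at 0.18. All lists were chosen with earlier results of these data known.

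Genes elsewhere in the table with the most similar changes were sought for each tested niche gene, by the root mean square distance over the 3 log2 changes, among 12014 genes. For Cxcl12 they were Tnfrsf14, at a distance of 0.04, and Gadd45a, at 0.06, and 9 genes lay within 0.1. Stab2 was closest to Dclk2 and to the tight junction scaffold Tjp1, with 42 genes within 0.1, and Kdr to the chemokine receptor Xcr1 and to 1810011O10Rik, with 14. Dcn was close to Spon2, with 6 within 0.1, Kitl to Jhdm1d and Herc2, with 12, and Tek to Pcolce2 and Ppp1r9b, with 78. Pecam1 was closest to Arl6ip5 and Tnfaip8l1, with 164, and Cdh5 to Rab3ip and Lmcd1, with 317. Col1a1 had 1 gene within 0.1, the complement receptor C5ar1, and the next was the collagen Col6a1, at 0.12. With 3 values a gene, which share the on library, such likeness is a description only.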

How the data were processed

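The authors deposited FPKM values for 23235 genes as 4 tables. Each of 3 tables sets 1 off time beside the on sample, and the fourth sets a combined off value beside it. The submitters' processing notes name TopHat2 2.0.4, Cuffdiff and the build mm9, without giving each tool's role. Neither the labels nor these notes state the gene models or library strandedness. The 0 hour column was read as the on sample. Between tables its values matched after 1 scaling factor each (at least 99.9% within 0.1% for the 72 h and 96 h tables). For the 10 genes, the combined off value in the authors' deposited table was 1.02 to 1.03 times the mean of the 3 off libraries and was not used further. FPKM hold no counts, so no counting interval is given, and an exact 0 may be a failed estimate.

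Limma 3.58.1 (statmod 1.5.0, R 4.3.3) was run on log2(FPKM + 1) with a trended, robust eBayes step. The fit leaves 2 residual degrees of freedom. P-values were adjusted by Benjamini-Hochberg over all 12015 genes, at 0.05. The script was tested on simulated data. On the deposited values the fit called 1415 genes higher and 1814 lower; with the median change at each time set to 0 (shifts of -0.15, -0.08 and -0.07), 1726 and 1246. The members and the 11 other lists (186 entries in 12 lists, 182 matched) were chosen with earlier results of these data known. Genes named beyond the 10 were the most abundant of a list in the on library, those at least 2-fold changed the same way at 3 times, the 2 nearest to each niche gene (1 of which is not reported here), and genes said to be chosen after their values were seen; the paired receptors and ligands and the other genes of the lists were also chosen with values known. The blood and hepatocyte lists are given mainly as counts and summed levels. Alternatives were other pseudocounts, no filter on low values, centring, leaving out each off library and plain eBayes.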

Additional observations from a re-analysis of the deposited data

Results flagged for a closer look

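Col1a1 at 96 h off changed by -0.67 against on, opposite in sign to its changes of 0.37 at 48 h and 0.36 at 72 h; the difference between the times was not tested, since each has 1 library. Cdh5 showed the same order of signs at a smaller size, with -0.15 at 96 h off against 0.03 at 48 h and 0.04 at 72 h, again untested.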

How the results depend on the processing

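Over 8 alternatives, Cxcl12, Kitl, Stab2, Kdr and Tek kept their direction and passed limma in each, with a Benjamini-Hochberg adjusted p of at most 0.0355. Cxcl12 lay between 1.57 and 1.81 on the log2 scale, Stab2 between 0.75 and 1.16, Kitl between 0.71 and 1.36, Kdr between 0.61 and 1.23 and Tek between 0.30 and 1.20, where the lowest value of each was with a pseudocount of 5 FPKM. Dcn did not pass with no filter on low values (adjusted p = 0.0598) and Pecam1 did not pass without the 72 h library (0.0521); Cdh5 and Col1a1 passed in none. The count of niche genes at least 2-fold changed at 48 h was 3, and it was 5 with a pseudocount of 0.1 FPKM and 1 with 5 FPKM; with 5 FPKM it was also 1 at 72 h and 1 at 96 h, where it was 4. Over the related endothelial, sinusoidal, stromal, bone-forming, mural and ligand lists, 16 genes passed, and 8 with no filter on low values. Leaving out any 1 off library leaves 1 residual degree of freedom and gave 10 to 24. The lowest count was without the 72 h library. The cause was not tested. No paired analysis was possible because each group holds 1 library and none shares a replicate number that pairs mice. Single libraries and unknown read depth limit all values, and Lepr lay below 1 FPKM throughout.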

Other observations

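Several genes were looked up after the values above were seen, since the labels do not name the tissue. Tlx1, a transcription factor of spleen stroma during development, stood, in the off libraries of 48 h, 72 h and 96 h, at 5.07, 6.28 and 7.10 FPKM, against 2.75 FPKM on. Nkx2-5, another factor of the developing spleen, was at 2.75, 2.0 and 1.72 FPKM off, against 2.12 FPKM on. Wt1 was at 1.25, 1.70 and 1.77 FPKM off, against 1.30 FPKM on, and Cxcl13, a chemokine of lymphoid stroma, at 5.0, 3.81 and 4.61 FPKM off, against 3.18 FPKM on. Fcer2a, a low-affinity IgE receptor whose source cells were not tested, had the largest change of those looked up. It was at 11.2, 11 and 15.4 FPKM off, against 4.87 FPKM on, at least 2-fold higher at all 3 times (1.19 ± 0.25; limma, Benjamini-Hochberg adjusted p = 0.00817). Madcam1, Ccl19 and Cr2 were below 1 FPKM in every library, and Ccl21a and Ccl21b were listed at 0 in all 4. Timd4, a receptor of resident macrophages from the macrophage list, was at 3.47, 3.26 and 3.73 FPKM off, against 0.430 FPKM on. It passed the filter on low values only through the off libraries and rose by 1.65 ± 0.08 (SD, n = 3 off libraries; limma, Benjamini-Hochberg adjusted p = 0.00125). Cd68, a lysosomal protein and the most abundant gene of the same list in the on library, was at 68.6, 54.6 and 44.4 FPKM off, against 115 FPKM on, and fell by 1.04 ± 0.31 (SD, n = 3; limma, Benjamini-Hochberg adjusted p = 0.0203; 0.0648 with no filter on low values).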
